A study of Mus musculus with 12 samples.

Results

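The first hour after hepcidin was added to mouse macrophages was examined gene by gene, in 3 hepcidin arrays and 3 PBS arrays, 6 of the 12 arrays of the series. The members were chosen by their titles alone, as the arrays labelled hepcidin or PBS at 1 h, and all 24675 named genes were tested. The other 6 arrays, PBS and hepcidin at 3 h, entered the fit for its estimate of spread and served for 1 comparison between the times. The cells were bone marrow-derived macrophages, primary cells grown for 7 days from the femur and tibia marrow of wild-type mice of 8 to 10 weeks in medium with L cell supernatant, which supplies M-CSF. Both groups spent 1 h in DMEM alone, without serum or the M-CSF source, before hepcidin or PBS was added. The strain and the sex of the mice are not given in the sources used here.

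Hepcidin is the peptide hormone that limits iron release into plasma by binding the exporter ferroportin, encoded by Slc40a1. Macrophages answer many stimuli within an hour with a primary wave, in which transcription factors already present in the cell, NF-kB among them, switch on genes that need no new protein synthesis. That wave is known to hold secreted alarm signals, receptors and, from the same start, the proteins and microRNAs that later shut it off. Transcripts of many such genes are short-lived.

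The hepcidin dose is not settled, since the growth protocol of the labels states 1 µg/ml and the treatment protocol 10 µg/ml. Whether the 3 arrays of a group stand for 3 mice or 3 cultures is not stated, so the p-values weigh an effect only against the scatter of these arrays, technical scatter included. The medians of the 1 h arrays ranged from 4.84 to 4.93 (log2 signal), and having 3 arrays a group limits the precision. Of 13 macrophage markers on the array, all but 1 lay above the background level defined further on, Csf1r, Adgre1 and Itgam among them, and the list's mean lay between 10.5 and 10.6 on every 1 h array. At or under background lay 8 of 16 neutrophil markers, 9 of 13 lymphocyte markers, 11 of 12 mast cell and basophil markers, 7 of 14 dendritic cell markers, 6 of 8 erythroid markers and 6 of 15 fibroblast markers. The others on these lists lay above it, and none of their members passed the test at 1 h. The neutrophil list averaged 4.93 to 5.16 on the PBS arrays and 4.95 to 5.21 on the hepcidin arrays, and the fibroblast list 5.32 to 5.65 and 5.28 to 5.74.

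At an adjusted p under 0.05 (limma, Benjamini-Hochberg), 130 genes rose with hepcidin at 1 h, which is 0.527% of those tested, and 8 fell, which is 0.0324%. The rises had a median of 0.87 on the log2 scale and the falls one of -0.56, against -0.0022 for all genes. At least 2-fold was reached by 51 of the risers and 4-fold by 15, and by none of the 8 genes that fell. With risers that started at background held to their lower bound, described further on, these counts were 48 and 13 and the median rise 0.86. The other 79 risers lay under 2-fold, 26 of them under 1.5-fold, and the smallest rise was 0.35. In all 138 genes the 3 hepcidin arrays and the 3 PBS arrays did not overlap, which was also so for 6.47% of all genes in the upward direction and 5.86% in the downward. An unadjusted p under 0.05 was reached by 1683 genes, 924 higher and 759 lower. With each of the 12 arrays left out in turn, 94 of the 138 genes passed every time, all 51 of the 2-fold risers among them, and 92 of the 94 were risers.

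**Figure D1:**
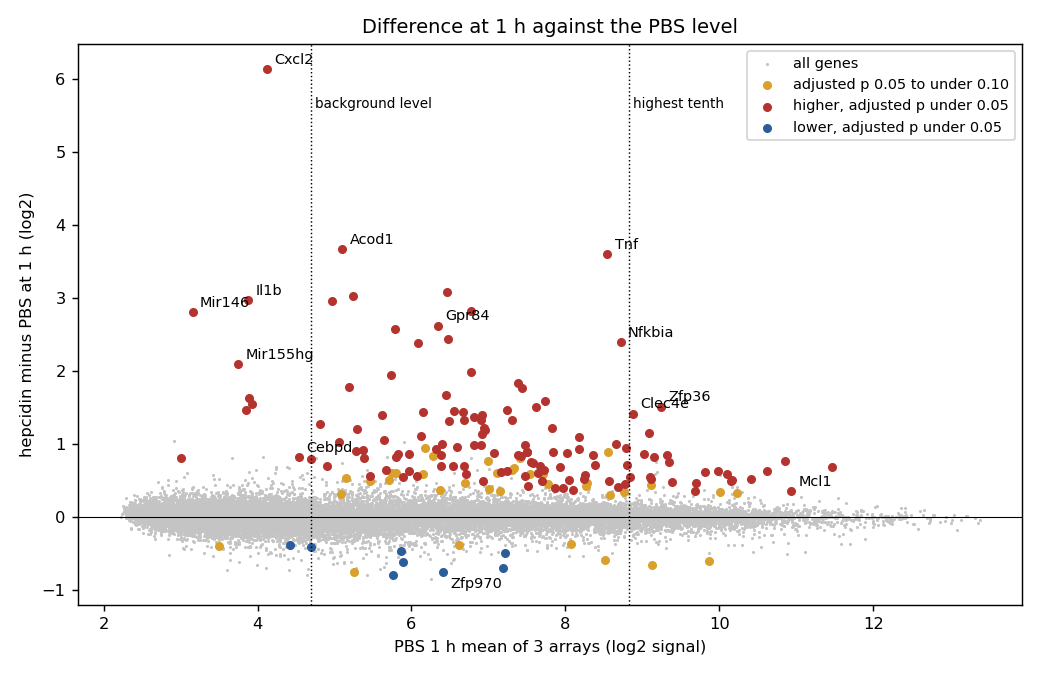
Each point is a gene: the x axis gives its mean log2 signal in the 3 PBS arrays at 1 h and the y axis the log2 difference, hepcidin minus PBS. Red points (130) rose and blue points (8) fell at an adjusted p under 0.05, orange points (36) had an adjusted p from 0.05 to under 0.10, and the dotted lines mark the background level at 4.69 and the lower edge of the top 10% at 8.83.

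Genes were grouped into 26 lists by role, and the NF-kB family with its inhibitors had the highest share of risers, 13 of 21 members on the array, with a median difference of 0.64. The IkB proteins hold NF-kB in the cytoplasm or tune it in the nucleus. Nfkbiz, which encodes the nuclear IkB-zeta, read 6.18, 6.61 and 6.61 under PBS and 9.59, 9.51 and 9.53 under hepcidin, with the hepcidin arrays close together and PBS replicate 1 lowest. Bcl3, another nuclear IkB, rose by 1.32 ± 0.10 (log2 difference ± SE throughout). Tnfaip3, the ubiquitin-editing brake A20, rose by 2.81 ± 0.14, and its partners Tnip3 and Tnip1 by 0.76 ± 0.081 and 0.64 ± 0.085. Among the subunits, Nfkb2 rose by 0.98 ± 0.1, Relb by 0.87 ± 0.093 and Rel by 0.61 ± 0.09. Rela, the subunit most used in the acute response, differed by 0.19 ± 0.056 with an adjusted p of 0.345. The kinase genes Ikbkb, Ikbkg and Tbk1 differed by 0.11 ± 0.066, 0.05 ± 0.081 and 0.12 ± 0.063 and did not pass, while Ikbke passed, at 0.56 ± 0.11 and an adjusted p of 0.0414. Ikbke missed the threshold when any of 10 of the 12 arrays was left out, with an adjusted p of up to 0.174.

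Of 33 enzymes of inflammatory and intermediary metabolism 4 rose. Acod1, which makes itaconate from cis-aconitate, read 5.05, 5.32 and 4.93 under PBS and 8.96, 8.75 and 8.58 under hepcidin, 12.6-fold higher with an adjusted p of 5.69e-08. Ptgs2, the inducible cyclooxygenase of prostaglandin synthesis, went from 5.64, 5.82 and 5.90 to 8.50, 8.14 and 8.44. These arrays stood far apart, with the lowest hepcidin value of either gene over 2 log2 units above its highest PBS value. Pde4b, which degrades cyclic AMP, lay at background under PBS and rose at least 1.72-fold. Sod2, the mitochondrial superoxide dismutase, rose by 0.82 ± 0.074 with 9.09, 9.21 and 9.16 under PBS and 9.99, 10.05 and 9.87 under hepcidin. Nox1, a catalytic NADPH oxidase subunit that is on no list, rose by 0.90 ± 0.10. Ptges, the next enzyme of prostaglandin E2 synthesis, differed by -0.033 ± 0.16, Nos2 by -0.30 ± 0.10 and Arg1 by -0.067 ± 0.35. Ldha of glycolysis differed by -0.0072 ± 0.12. The wide error of Arg1 leaves room for a change of either sign.

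Of 33 macrophage G protein-coupled receptors 4 rose, and the list's median difference was 0.045. Gpr84, which senses medium-chain fatty acids, read 6.42, 6.30 and 6.29 under PBS and 9.31, 8.76 and 8.79 under hepcidin, with an adjusted p of 3.79e-07. Ptger4, a receptor for prostaglandin E2, rose from 7.68, 7.79 and 8.01 to 9.03, 9.04 and 9.06. Ccrl2, which binds chemerin without signalling, rose from 5.94, 5.98 and 6.52 to 7.44, 7.58 and 7.70, with more spread. Gpr65, a proton-sensing receptor already bright under PBS, rose by 0.51 ± 0.084, and it missed the threshold without hepcidin replicate 2 (adjusted p of 0.0915) or PBS replicate 1. In Gpr84, hepcidin replicate 1 was the highest array, while the 3 hepcidin arrays of Ptger4 were almost equal. Receptors at high signal such as C3ar1, Cxcr4 and P2ry6 gave 0.0095 ± 0.07, -0.0068 ± 0.079 and 0.043 ± 0.093.

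Of 27 pattern receptors and their adaptors on the array 4 rose. Tlr2, the receptor for bacterial lipopeptides, read 6.62, 6.32 and 6.42 under PBS and 8.33, 8.18 and 7.86 under hepcidin. Nlrp3, the inflammasome sensor, rose by 1.43 ± 0.13. Clec4e, the receptor Mincle for glycolipids, rose from 8.98, 8.80 and 8.83 to 10.58, 10.17 and 10.09. Nod2, a sensor of muramyl dipeptide, rose by 0.92 ± 0.15 but missed the threshold without PBS replicate 1 (adjusted p of 0.0631) or hepcidin replicate 1. Tlr4 differed by -0.15 ± 0.064, Cd14 by 0.23 ± 0.076 and Myd88, the shared adaptor, by 0.61 ± 0.14 with an adjusted p of 0.125. The inflammasome-related genes Mefv, which encodes pyrin, and Casp4, the caspase that senses cytosolic lipopolysaccharide, rose by 0.79 ± 0.13 and 0.70 ± 0.088. Casp1, the classical inflammasome caspase, differed by -0.035 ± 0.072. Mefv lost its call without any of 4 arrays, with an adjusted p of up to 0.103 (without PBS replicate 1).

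Of 23 interleukins and other cytokines on the array, 13 lay at background under PBS and 2 rose. Il1b, which encodes interleukin-1 beta, lay at background under PBS, with 4.04, 3.74 and 3.86, and read 7.05, 6.71 and 6.78 under hepcidin, at least 4.45-fold higher. Csf1, the macrophage growth factor, rose from 5.92, 6.13 and 6.33 to 7.49, 7.17 and 7.02. Il6 read 2.97, 3.05 and 3.14 under PBS and 3.07, 3.07 and 3.10 under hepcidin, at background on all 6 arrays and not past the test. Ifnb1 and Il10 had means at background in both groups and did not pass. Of 24 chemokines, 6 rose. Cxcl2, which attracts neutrophils, had the largest difference of all genes, also as a lower bound, and went from 3.84, 4.17 and 4.36 at background to 10.39, 10.13 and 10.22, at least 47.0-fold higher. Ccl3, already bright with a PBS mean of 11.46, rose by 0.68 ± 0.076, and Cxcl16, also bright, by 0.48 ± 0.071. Ccl4 rose by 0.98 ± 0.17 and lost its call without any of 3 arrays, with an adjusted p of up to 0.102 (without hepcidin replicate 2). Ccl2 and Ccl7, monocyte attractants, gave 0.60 ± 0.17 and 0.60 ± 0.19 with adjusted p of 0.329 and 0.458.

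Of 29 TNF superfamily ligands and receptors 4 rose. Besides Tnf, which rose 12.1-fold, the ligand gene Tnfsf9, encoding 4-1BB ligand, went from 6.25, 6.40 and 6.75 under PBS to 9.17, 8.67 and 8.88 under hepcidin. The receptor genes Fas and Cd40 rose by 0.95 ± 0.15 and 0.86 ± 0.14. Both trigger death or activation signals in the cell that carries them. Without PBS replicate 2 both lost their calls, Fas at an adjusted p of 0.0525, which left 2 of the 4 risers, and Cd40 was also lost without any of 3 other arrays (adjusted p of up to 0.0902). The receptors for TNF itself did not pass, Tnfrsf1a at 0.03 ± 0.07 and Tnfrsf1b at 0.083 ± 0.076. Of 26 adaptors and ligases of TNF and IL-1 receptor signalling 5 rose, and these passed with each array left out in turn. Among them, Trim13, a membrane-bound ubiquitin ligase gene, read 5.50, 5.49 and 5.84 under PBS and 7.24, 6.99 and 6.80 under hepcidin. Traf1 rose by 1.00 ± 0.08, Birc3, the ligase cIAP2, by 0.85 ± 0.099, Rnf19b by 0.93 ± 0.08 and Tnfaip2 by 0.86 ± 0.067. Their relatives Traf2, Traf6 and Birc2 gave 0.085 ± 0.073, 0.19 ± 0.081 and 0.26 ± 0.11, and did not pass.

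Of 30 adhesion, costimulation and surface activation genes 6 rose. Cd69, an early activation marker that retains cells in tissue, read 4.68, 5.19 and 5.05 under PBS and 8.10, 7.90 and 7.79 under hepcidin. Icosl, the ligand of the T cell costimulator ICOS, rose from 7.78, 7.76 and 7.68 to 9.59, 9.29 and 9.09. Icam1 rose by 1.76 ± 0.11, Cd83 by 1.32 ± 0.15 and Sdc4, a heparan sulfate proteoglycan, by 0.85 ± 0.078. Itga5, the fibronectin receptor chain, rose by 0.54 ± 0.088 and lost its call without any of 4 arrays, with an adjusted p of up to 0.0894 (without PBS replicate 1). The costimulators Cd80 and Cd86 gave 0.30 ± 0.074 and -0.07 ± 0.095, and the bright integrin genes Itgb2 and Itgb1 0.0054 ± 0.078 and 0.069 ± 0.066. Of 28 cytokine receptors on the array only Il10ra, which binds interleukin-10, rose, by 0.70 ± 0.078. Flrt3, a leucine-rich adhesion protein, lay at background under PBS and rose at least 1.54-fold. H2-M2, a nonclassical class I gene, rose by 1.05 ± 0.14, and its probe sequence may overlap with relatives in that multigene family.

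**Figure D2:**
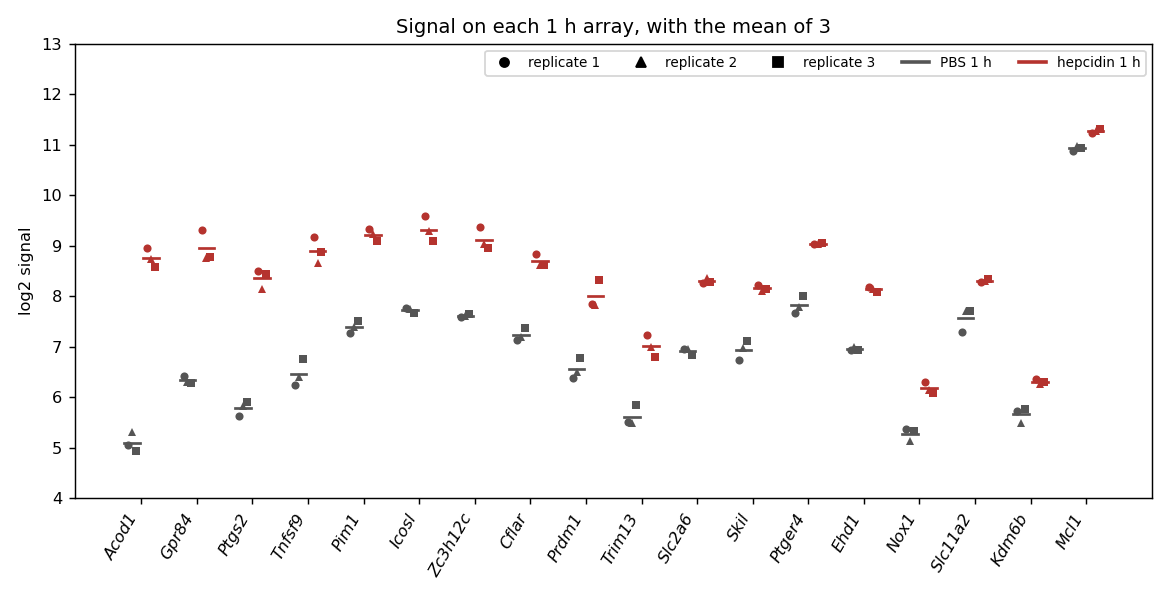
The log2 signal of 18 risers on each 1 h array is plotted, with PBS in grey and hepcidin in red, replicate numbers 1 to 3 by marker shape, and bars at the mean of 3 arrays. The 2 groups do not overlap for any gene shown, and the distance between them shrinks from 3.66 for Acod1 to 0.35 for Mcl1.

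Regulators of messenger RNA decay and other RNA-binding genes were also in the wave. Of this list 6 of 22 members on the array were higher, although its median difference was 0.023. Zfp36, which encodes tristetraprolin and binds AU-rich elements, read 9.13, 9.31 and 9.29 under PBS and 10.74, 10.75 and 10.75 under hepcidin. Its paralogue Zfp36l1 rose by 0.75 ± 0.11, while Zfp36l2 gave -0.16 ± 0.072. Zc3h12c, an endoribonuclease of the Regnase family, rose from 7.59, 7.62 and 7.65 to 9.37, 9.03 and 8.97, and Zc3h12a, Regnase-1, by 1.31 ± 0.10. Zc3h12d of the same family gave -0.027 ± 0.097. Btg2, which recruits deadenylases, rose by 0.98 ± 0.087 and N4bp1, an RNase of the innate response, by 0.68 ± 0.093. Other members of the list, Cnot1 and Elavl1, gave -0.0089 ± 0.073 and -0.039 ± 0.061. All 6 risers passed with each array left out in turn.

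The immediate early transcription factors, which many growth and stress stimuli induce as a block, passed in 4 of 30 members. These were Ier3 at 1.98 ± 0.15, Junb at 1.09 ± 0.09, Fos at 0.88 ± 0.14 and Myc at 0.85 ± 0.13. Junb read 8.08, 8.20 and 8.23 under PBS and 9.25, 9.20 and 9.33 under hepcidin. Fos lost its call without hepcidin replicate 2 (adjusted p of 0.0839) or hepcidin replicate 3. Egr1 read 5.15, 5.28 and 5.77 under PBS and 5.42, 5.59 and 5.37 under hepcidin, so its groups overlapped. Atf3, bright in both groups, differed by -0.24 ± 0.11 and Jun by 0.30 ± 0.15, with adjusted p of 0.726 and 0.769. Klf6 gave 0.27 ± 0.079. The 95% interval of the difference of Egr1, -0.37 to 0.49, leaves room for a change in either direction.

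Of 50 other regulators of transcription and chromatin, 8 rose. Irf1 read 6.81, 6.86 and 6.76 under PBS and 8.21, 8.13 and 8.17 under hepcidin. Ets2 and Etv3, both of the ETS family, rose by 0.88 ± 0.10 and 0.83 ± 0.084. Cebpb rose by 0.60 ± 0.066, and Cebpd at least 1.59-fold from a PBS level at background, while Cebpa gave -0.23 ± 0.13. Cited2, a bright coregulator that competes for CBP/p300, rose from 10.47, 10.73 and 10.64 to 11.27, 11.26 and 11.20. Id3 and the histone H3K27 demethylase Kdm6b rose by 0.85 ± 0.14 and 0.64 ± 0.11, and lost their calls without any of 4 and of 5 arrays, with adjusted p of up to 0.0981 (without PBS replicate 1) and 0.116 (without PBS replicate 2). Outside the list, Prdm1, the repressor Blimp-1, read 6.38, 6.49 and 6.79 under PBS and 7.85, 7.83 and 8.33 under hepcidin. Skil, the SMAD repressor SnoN, rose by 1.22 ± 0.10, and the zinc finger gene Zfp263 by 0.88 ± 0.094. Plagl2, another zinc finger factor, and Sap30, a Sin3 corepressor subunit, rose by 0.54 ± 0.083 and 0.40 ± 0.069. Plagl2 was lost without PBS replicate 1 (adjusted p of 0.0533) or hepcidin replicate 2, and Sap30 without any of 5 arrays (up to 0.111).

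Of 23 SOCS, PIM and JAK-STAT genes 2 rose. Pim1, a survival kinase induced by many cytokines, read 7.27, 7.39 and 7.51 under PBS and 9.33, 9.23 and 9.09 under hepcidin. Socs3, the inhibitor of gp130 receptors, read 5.34, 5.24 and 4.97 under PBS and 7.13, 6.85 and 6.89 under hepcidin. Socs1 and Stat3 did not pass, at -0.28 ± 0.11 and 0.075 ± 0.067. Map3k8, the kinase Tpl2 upstream of ERK, rose by 0.93 ± 0.069. Among MAP kinase phosphatases and Ras brakes, Dusp5 and Dusp2 passed, 2 of 22, at 0.55 ± 0.097 and 0.55 ± 0.10. That count was 0 without hepcidin replicate 2, hepcidin replicate 3, PBS replicate 1 or PBS replicate 2, 1 without hepcidin replicate 1, 3 h hepcidin replicate 2 or 3 h PBS replicate 2 or 3, and 4 without 3 h hepcidin replicate 1. Nuak2, an AMPK-related kinase gene, and the AMPK subunit gene Prkab2, rose by 0.69 ± 0.094 and 0.59 ± 0.11. Sgk1, the serum- and glucocorticoid-regulated kinase, rose by 0.49 ± 0.092. Prkab2 and Sgk1 lost their calls without any of 9 and of 6 arrays, with adjusted p of up to 0.201 (without PBS replicate 1) and 0.182 (without hepcidin replicate 2).

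Of 24 G protein regulators and small GTPases 5 rose, and of 21 cytoskeleton and actin regulators 5. Tagap, which encodes a GTPase-activating protein, read 6.95, 6.35 and 6.74 under PBS and 8.23, 7.96 and 7.83 under hepcidin. Ehd1, which drives endosomal recycling, rose from 6.93, 7.00 and 6.95 to 8.19, 8.14 and 8.08. Rasgef1b rose by 1.14 ± 0.17, Ralgds by 1.13 ± 0.089, Rrad by 0.80 ± 0.11, Rab20 by 0.62 ± 0.094 and Cdc42ep2, a Cdc42 effector, by 1.02 ± 0.14. Stx11, a syntaxin of secretory vesicles, rose by 0.93 ± 0.11. Actb, Zyx and Capg gave -0.026 ± 0.068, -0.0035 ± 0.082 and -0.029 ± 0.063. The count for G protein regulators was 3 without hepcidin replicate 1 or 2 or PBS replicate 1 or 2. That for actin regulators was 3 without hepcidin replicate 2 or 3, PBS replicate 1 or 3, 3 h hepcidin replicate 2 or 3 h PBS replicate 2 or 3. The members lost in those fits were Marcks at 0.44 ± 0.082, Vasp at 0.38 ± 0.075, Rnd3 at 0.57 ± 0.094 and Arhgef3 at 0.61 ± 0.11.

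Of 31 apoptosis, survival and DNA damage genes 6 rose. Cflar, which encodes the caspase-8 inhibitor c-FLIP, read 7.13, 7.19 and 7.38 under PBS and 8.83, 8.62 and 8.63 under hepcidin. Gadd45b and Gadd45a rose by 1.00 ± 0.14 and 0.75 ± 0.094, while Gadd45g gave -0.08 ± 0.11. Mcl1, bright in both groups, rose from 10.88, 10.98 and 10.94 to 11.24, 11.29 and 11.32, and Nupr1 by 0.47 ± 0.093. Mcl1 and Nupr1 lost their calls without any of 11 and of 10 arrays, with adjusted p of up to 0.22 (without PBS replicate 1) and 0.233 (without hepcidin replicate 2). The p53 target genes Cdkn1a and Mdm2 gave 0.16 ± 0.076 and 0.14 ± 0.062. Hspa1a and Hspa1b, near-identical heat shock genes whose probes may not tell them apart, rose by 0.88 ± 0.15 and 0.63 ± 0.10. That count of 2 was 0 without hepcidin replicate 2 or 3, and 1 without PBS replicate 1 or 2. Other heat shock genes, Hsph1, Dnajb1 and Hspa8, gave 0.10 ± 0.078, -0.094 ± 0.079 and -0.039 ± 0.071.

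Of 31 genes on the list of membrane transporters and channels 3 rose, Slc2a6, Slc31a2 and Stx11, the last a syntaxin and not a transporter. Of 31 iron handling genes, the group nearest to the known action of the peptide, 1 rose, Slc11a2. Slc2a6, a lysosomal sugar transporter, read 6.95, 6.95 and 6.84 under PBS and 8.26, 8.37 and 8.29 under hepcidin. Slc31a2, linked to copper transport, rose from 10.02, 10.10 and 10.16 to 10.69, 10.74 and 10.62. Slc11a2, the divalent metal transporter DMT1 that carries ferrous iron, rose from 7.30, 7.71 and 7.72 to 8.28, 8.30 and 8.34, 1.66-fold, with an adjusted p of 0.00238. Slc40a1 read 8.29, 8.27 and 8.32 under PBS and 8.17, 8.27 and 8.17 under hepcidin, a difference of -0.092 ± 0.068 with a 95% interval of -0.24 to 0.057. Tfrc, the transferrin receptor, gave -0.026 ± 0.12, Hmox1 0.00047 ± 0.11 and Fth1 -0.047 ± 0.058. Arrays read transcripts and not the amount of ferroportin protein. The iron list's median was 0.037, and 12 of its 31 members lay at background.

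The lists together took in 94 of the 130 risers, and 36 stood in none, 7 of them predicted models or numbered clones. Lpcat2, an acyltransferase of platelet-activating factor synthesis, rose by 0.48 ± 0.093, and Lacc1, an enzyme of macrophage metabolism, from 8.21, 8.23 and 8.29 to 8.85, 8.73 and 8.68. Mtmr14, a phosphoinositide phosphatase, rose by 0.49 ± 0.073 and Abhd17c, a depalmitoylase, by 0.45 ± 0.076. Vmp1, an autophagy membrane protein, and C9orf72 rose by 0.40 ± 0.074 and 0.37 ± 0.072. Slfn2, a Schlafen family gene, rose from 10.34, 10.50 and 10.40 to 10.95, 10.91 and 10.91. Sowahc rose by 0.84 ± 0.065, Clec5a, a DAP12-coupled lectin, by 0.51 ± 0.1, Ube2f, a NEDD8-conjugating enzyme, by 0.56 ± 0.11, and Serpinb8 by 0.49 ± 0.091. Spata13, Spaca6, Ift57 and Zfand5 rose by 0.69 ± 0.13, 0.70 ± 0.12, 0.42 ± 0.065 and 0.35 ± 0.07. Of the genes in this paragraph, Slfn2, Lacc1, Mtmr14 and Sowahc passed with every array left out in turn, and the other 11 did not. Ift57 was lost without PBS replicate 1 (adjusted p of 0.0504), Spaca6 without PBS replicate 1 (0.114) or 3, Abhd17c without any of 4 arrays and Zfand5 without any of 12, with the highest adjusted p, 0.248, in Ube2f without PBS replicate 2.

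**Figure D3:**
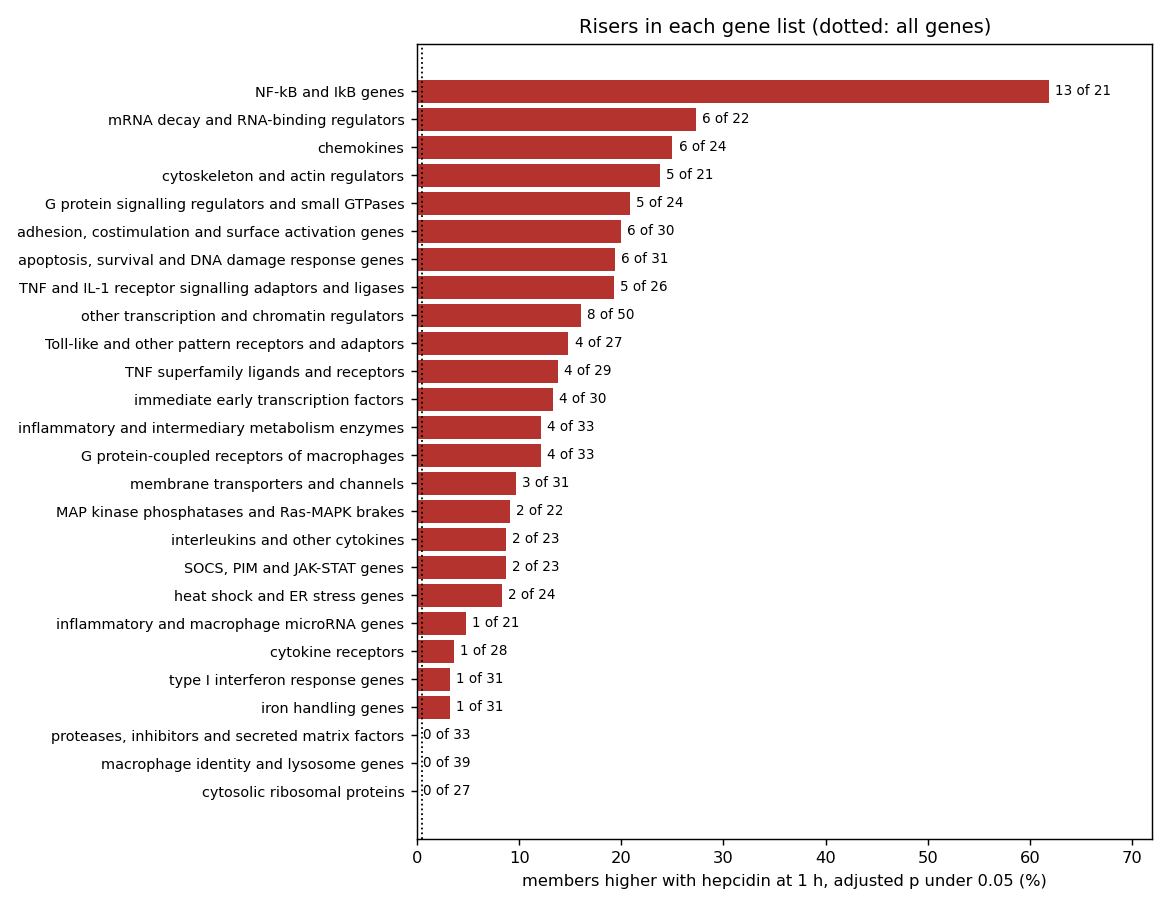
Bars give the percent of each list's members on the array that rose with hepcidin at 1 h at an adjusted p under 0.05, with the counts beside them, and the dotted line is the 0.527% of all genes. The NF-kB list stands at 13 of 21, while the lists of proteases, macrophage identity genes and cytosolic ribosomal proteins hold 0.

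The number of calls varied with the PBS level. A log2 signal holds probe affinity as well as transcript amount, so the levels order probe sets only roughly. With genes divided into 10 equal bins by PBS 1 h mean, from the dimmest to the brightest, the bins held 1, 1, 2, 4, 3, 14, 28, 32, 22 and 23 risers. The 5 dimmest bins thus gave 11 risers and the 5 brightest 119. The median of the rises that passed was 1.55 in the 5 dimmest bins and 0.86 in the others. Of those 11 rises 9 started at background, and with these held to their lower bound their median was 0.82, no longer above that of the brighter bins. The median standard error rose from 0.096 in the dimmest bin to 0.113 in the sixth and then fell to 0.072 in the brightest. The smallest passing rise was 0.55 in the sixth and seventh bins, 0.42 in the eighth, 0.37 in the ninth and 0.35 in the brightest. At the top the sizes were smaller as well: the brightest bin held 3 rises of 2-fold or more, against 15 in the seventh. The median difference of all genes stayed between -0.026 and 0.02 in every bin.

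**Figure D4:**
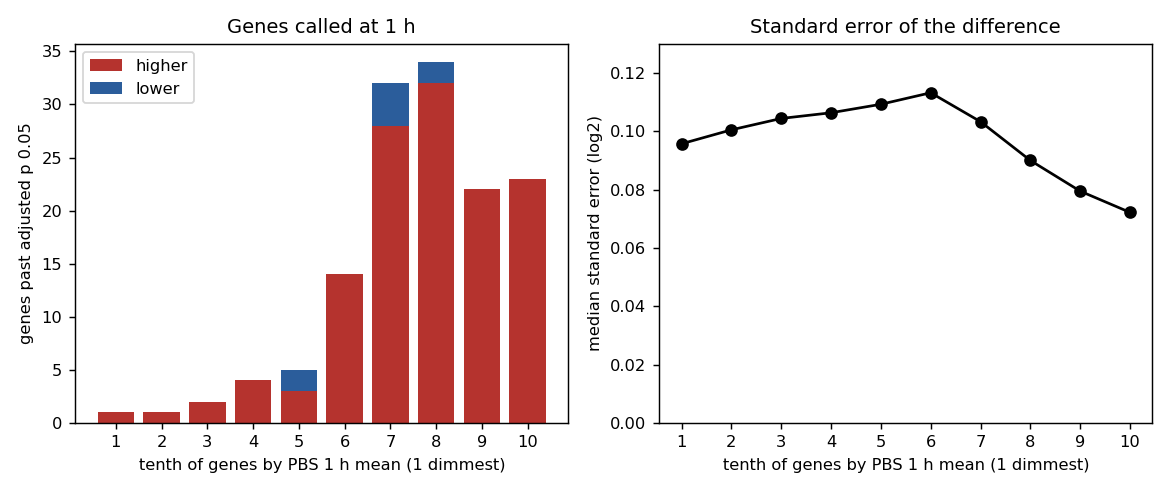
The left panel counts genes that passed an adjusted p of 0.05 in each of 10 bins of genes by PBS 1 h mean, red for higher and blue for lower, and the right panel gives the median standard error of the log2 difference. Calls peak in the eighth bin with 32 risers and 2 falls, while the standard error is largest, 0.113, in the sixth.

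A background level was set from 1365 olfactory and vomeronasal receptor genes, which macrophages are not known to use, at the 95th percentile of their PBS 1 h means, 4.69. By this measure 11586 genes, 47.0% of those tested, lay at background under PBS. Of these, 10 passed, 9 higher and 1 lower, where 130 of all 24675 genes passed as higher and 8 as lower. From the dimmest bin to the fourth, all at background, the share that rose ran from 0.0405% to 0.162%, against 0.527% of all genes. Of the 10, 8 rose above the background level under hepcidin. A level at background is only an upper limit, so a rise from there is given as at least a fold, the mean of the hepcidin arrays over the background level, on which each PBS array below it was set. Mir155hg, the host transcript of miR-155, read 3.61, 3.92 and 3.71 under PBS and 5.73, 5.61 and 6.16 under hepcidin, at least 2.20-fold higher. Pde4b read 3.94, 4.20 and 3.66 and 5.77, 5.47 and 5.19, Flrt3 3.59, 3.67 and 4.29 and 5.35, 5.10 and 5.50, and Cebpd 4.61, 4.44 and 4.58 and 5.44, 5.34 and 5.30. Cxcl2, Il1b and Mir146 also started there, and the 2 others that rose are predicted models, of which 1 stayed at background in both groups. The dim gene that fell was Kcng2, a potassium channel subunit, from 4.54, 4.43 and 4.31 to 4.02, 4.04 and 4.07. Kcng2 stayed at background in both groups and lost its call without any of 10 arrays, with an adjusted p of up to 0.207. None of the 1365 receptor genes passed.

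By gene class, 123 of 19683 protein-coding genes rose, or 0.625%, and 3 fell, or 0.0152%. Over all genes these shares were 0.527% and 0.0324%. Of 3056 long noncoding RNA genes 6 rose (0.196%) and 1 fell (0.0327%), and 76.0% of that class lay at background. Of 534 microRNA genes 1 rose (0.187%) and 3 fell (0.562%). No call fell on the 510 pseudogenes, 262 immunoglobulin and T cell receptor V segments or 107 small nucleolar RNA genes, and 1 of 327 transcribed pseudogenes fell (0.306%). At a share of 0.527%, classes this small would hold few risers or none, so the lack of calls says little about them. Probes for a microRNA gene read its precursor region, so the values speak of the primary transcript and not of the mature molecule.

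The microRNA genes that passed, and the nearest miss, are shown by their mature sequences from RefSeq, because the arm and seed set what a mature microRNA can bind. Capitals mark the seed, bases 2 to 8, and no seed is shared between these genes.
miR-146a-5p: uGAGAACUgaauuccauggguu
miR-146a-3p: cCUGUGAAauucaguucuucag
miR-5104: cUGUGCUAgugagguggcucagca
miR-1933-5p: aGUCAUGGuguucggucuuaguuu
miR-1933-3p: cCAGGACCaucagugugacuau
miR-3070-5p: aGCCCCUGaccuugaaccuggga
miR-3070-2-3p: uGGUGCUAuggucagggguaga
miR-222-3p: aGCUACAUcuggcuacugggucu

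Mir146, the gene of miR-146a, a known feedback inhibitor of IRAK1 and TRAF6, read 3.13, 3.15 and 3.19 under PBS and 6.25, 5.77 and 5.84 under hepcidin, at least 2.39-fold higher. The means of its relative Mir146b lay at background in both groups. The 3 microRNA genes that fell were Mir5104, from 7.17, 7.22 and 7.18 to 6.51, 6.46 and 6.50, Mir1933, from 5.91, 5.87 and 5.87 to 5.57, 5.06 and 5.16, and Mir3070b, from 4.65, 4.66 and 4.77 to 4.34, 4.18 and 4.32. The PBS arrays of Mir3070b lay on both sides of the background level of 4.69. Its hepcidin arrays all lay under that level, so the size of this fall is not measured. Mir5104 differed by -0.70 ± 0.085 and passed with each array left out in turn. Mir1933 and Mir3070b lost their calls without any of 5 and of 10 arrays, with adjusted p of up to 0.118 and 0.207. Mir222 and its cluster mate Mir221 gave 0.93 ± 0.19 and 0.80 ± 0.19, with adjusted p of 0.0567 and 0.151, and the list of inflammatory microRNAs held 2 risers instead of 1 without PBS replicate 3 or the 3 h hepcidin replicate 3.

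The other falls were small. Zfp970, a zinc finger gene, went from 6.38, 6.40 and 6.45 under PBS to 5.71, 5.54 and 5.72 under hepcidin. Hmga2-ps1, a transcribed pseudogene whose probes may also read its parent gene, went from 7.15, 7.16 and 7.33 to 6.58, 6.79 and 6.75. The last 2 of the 8 were predicted models, at -0.47 and -0.80. The number that fell was 3 without hepcidin replicate 2, PBS replicate 1 or PBS replicate 2, and 17 without hepcidin replicate 1. Mir5104 and Hmga2-ps1 passed in every such fit. Hmga2-ps1 gave an adjusted p of 0.00658, and Zfp970 lost its call without any of 4 arrays (up to 0.0968).

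Near misses, with an adjusted p from 0.05 to under 0.10, numbered 36, of which 29 were higher and 7 lower. In all 36 the groups did not overlap, against 6.47% of all genes upward and 5.86% downward. Choosing genes by a small p in the same contrast favours such a gap. The closest was Lpar6, a receptor for lysophosphatidic acid, which read 8.85, 9.17 and 9.35 under PBS and 8.22, 8.53 and 8.61 under hepcidin, a difference of -0.67 ± 0.13 and an adjusted p of 0.0501. Next came Plaur, the urokinase receptor, at 0.58 ± 0.12, the phosphatase gene Dusp4 at 0.80 ± 0.16, Csrnp1 at 0.52 ± 0.11, the tetraspanin gene Cd82 at 0.35 ± 0.071 and Dusp1 at 0.89 ± 0.18. Dusp1 read 8.15, 8.66 and 8.85 under PBS and 9.30, 9.44 and 9.57 under hepcidin, so the groups were apart but PBS replicate 1 lay well below the other PBS arrays. Cd274, which encodes PD-L1, differed by 0.67 ± 0.14, Slc16a10, an aromatic amino acid transporter, by 0.34 ± 0.069, Samsn1, an adaptor protein, by 0.41 ± 0.085, Mir1938 by 0.59 ± 0.12 and Irak2, a kinase of IL-1 and Toll-like receptor signalling, by 0.59 ± 0.12. Noct, which encodes nocturnin, gave 0.49 ± 0.10. Of the 36, 25 passed in at least 1 fit with an array left out. At 3 h 24 passed in the same direction, where 2.8% of all genes passed as higher and 2.53% as lower. All 36 had the same sign at 3 h, and the matching share over all genes is not given here.

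A log2 difference of 1 or more in size without passing was seen for 2 genes. Cxcl3, a neutrophil chemokine at background under PBS, read 2.91, 2.83 and 3.01 under PBS and 3.65, 4.59 and 3.61 under hepcidin, with hepcidin replicate 2 well above the other arrays and an adjusted p of 0.332. H2-Q5, of the class I multigene family, read 5.30, 6.29 and 6.11 and 6.59, 7.17 and 7.00, with an adjusted p of 0.296. The hepcidin arrays of Cxcl3 stayed under the background level at 1 h, so no size is given, and at 3 h the gene passed.

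At high signal the arrays can bound what did not change. In the top 10% of genes by PBS 1 h mean, 2468 genes at or above 8.83, the 95% interval of the difference lay within 0.5 log2 on both sides for 2344, or 94.98%, against 89.5% of all genes. For 1937 it lay within 0.3. By bins of PBS 1 h level, the share within 0.5 was 93.8% in the dimmest, 82.2% in the sixth and 93.6% in the ninth. A narrow interval was thus not particular to high signal, and the dimmest bin lay at background, where a level is only an upper limit. The 15 brightest genes had differences from -0.18 to 0.027, and their intervals reached from -0.35 to 0.17. They include the lysosomal genes Ctsb, Ctsd and Psap, the ferritin heavy chain gene Fth1, B2m of class I molecules, Lgals3, Cd68, Vim, Lpl, Lilrb4a, Pabpc1 and the replication clamp gene Pcna. Both low ends belong to Rn7sk, a small nuclear RNA gene. Its interval, -0.35 to -0.015, lay wholly on the lower side, with an adjusted p of 0.697 in the limma test. Ctsb read 13.38, 13.37 and 13.39 under PBS and 13.33, 13.33 and 13.35 under hepcidin. Saturation near the top of the range would shrink a difference and cannot be read from the deposited values. Of 39 macrophage identity and lysosome genes on the array none passed, with a median difference of 0.009, and none of 27 cytosolic ribosomal protein genes did, of which 9 lay at background.

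In the same top 10%, 23 genes passed, all of them higher, which is 0.932% of these genes. The 2-fold rises there were Zfp36, Clec4e and Rasgef1b. Those of smaller size already described were Tnip3, Ccl3, Tnfaip2, Sdc4, Sod2, Zfp36l1, Cited2, Rel, Slc31a2, Slfn2, Itga5, Gpr65, Cxcl16, Plagl2, Clec5a, Nupr1, Abhd17c, Zfand5 and Mcl1, and the remaining 1 is a predicted model. Bright members of the lists that did not pass include Rela and Sqstm1, at 0.19 ± 0.056 and 0.21 ± 0.06. Another was Rgs2, a regulator of G protein signalling, which read 10.76, 10.94 and 10.91 under PBS and 10.15, 10.46 and 10.47 under hepcidin with an adjusted p of 0.138.

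For 101 of the bright genes the interval was wider than the bound and the test was not passed, so neither a change nor its absence can be stated from this fit. In 48 of these, or 47.5%, replicate 1 was the highest array of both groups, against 19.2% of the top 10% as a whole. Mki67, a marker of cycling cells, read 11.40, 10.88 and 10.74 under PBS and 11.34, 10.61 and 10.48 under hepcidin, and Top2a 10.74, 10.20 and 10.04 and 10.67, 9.96 and 9.83. Gpnmb, a lysosomal glycoprotein gene, read 12.81, 10.99 and 11.07 and 12.82, 10.80 and 10.82. In these 3 genes, chosen after their values were seen, replicate 1 was the highest array of both groups, and of both 3 h groups as well. At 3 h Gpnmb read 12.81, 10.99 and 10.98 under PBS and 12.78, 10.60 and 10.48 under hepcidin.

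The 3 h arrays, which are separate from those of 1 h, show where each early gene stood later. At 3 h, 2.8% of all genes passed as higher and 2.53% as lower. Of the 130 early risers, 111 passed as higher at 3 h, 19 did not pass and none passed as lower, and their median difference was 1.10. Those 19 include Tnfsf9, Btg2, Map3k8, Fos, Myc, Zfp36l1, Nuak2, Nfkbid, Cited2, Rab20, Prkab2, Gpr65, Sgk1, Vmp1 and Mcl1, the rest being models. The means behind these results differed. For Myc the PBS mean was 7.39 at 1 h and 7.89 at 3 h, with a hepcidin mean of 8.23 at both. For Cited2 the PBS means were 10.62 and 11.05 and the hepcidin means 11.25 and 11.26. Nfkbid went the other way, with PBS means of 7.66 and 7.67 and hepcidin means of 8.35 and 7.84. Tnfsf9, Map3k8, Zfp36l1, Nuak2, Gpr65 and Mcl1 also had a lower hepcidin mean at 3 h. The change of PBS between the times was not tested. Of the 8 early falls, 4 passed as lower at 3 h. Across all genes the hepcidin effect was larger at 3 h for 0.523% and smaller for 0.507%, by the test of the difference between times. The total of 254 such genes was between 141 and 159 without hepcidin replicate 2 or 3, PBS replicate 2 or 3, or 3 h PBS replicate 2 or 3. Among early risers it was larger for 26, smaller for 15 and not called for 89. As the risers were chosen on the 1 h arrays, their 1 h sizes may read high in this test.

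Named by the size of that difference, the genes with the larger effect at 3 h were Acod1, with a further 2.28 ± 0.21, Fas with 1.74 ± 0.21, Gpr84 with 1.68 ± 0.18, Nox1 with 1.43 ± 0.14, Il1b, Clec4e with 1.06 ± 0.16, Ets2 with 1.06 ± 0.14 and Ikbke with 0.99 ± 0.15. Fas thus went from a difference of 0.95 at 1 h to 2.69 at 3 h, and Nox1 from 0.90 to 2.33. Those with the smaller effect at 3 h were Tnfsf9, with -1.78 ± 0.26, Nfkbiz with -1.44 ± 0.23, Mir155hg, Zfp36l1 with -1.10 ± 0.16, Ier3 with -1.03 ± 0.21, Zfp36 with -0.997 ± 0.12, Tnf with -0.92 ± 0.18 and Map3k8 with -0.72 ± 0.098. Il1b and Mir155hg lay at background under PBS at both times, so their sizes and places in this order are not measured. Their hepcidin means were 6.85 at 1 h and 8.23 at 3 h for Il1b, and 5.83 and then 4.47, under the background level, for Mir155hg. Map3k8 and Zfp36l1 stood at 0.21 and -0.35 at 3 h, neither past the test. Members of 1 list could go either way. Among receptors, Ptger4 had a smaller effect at 3 h, with -0.70 ± 0.14 and an adjusted p of 0.0297, against the larger effect of Gpr84. Among RNA decay genes, Zc3h12c differed between times by 0.26 ± 0.14 and did not pass, unlike Zfp36.

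**Figure D5:**
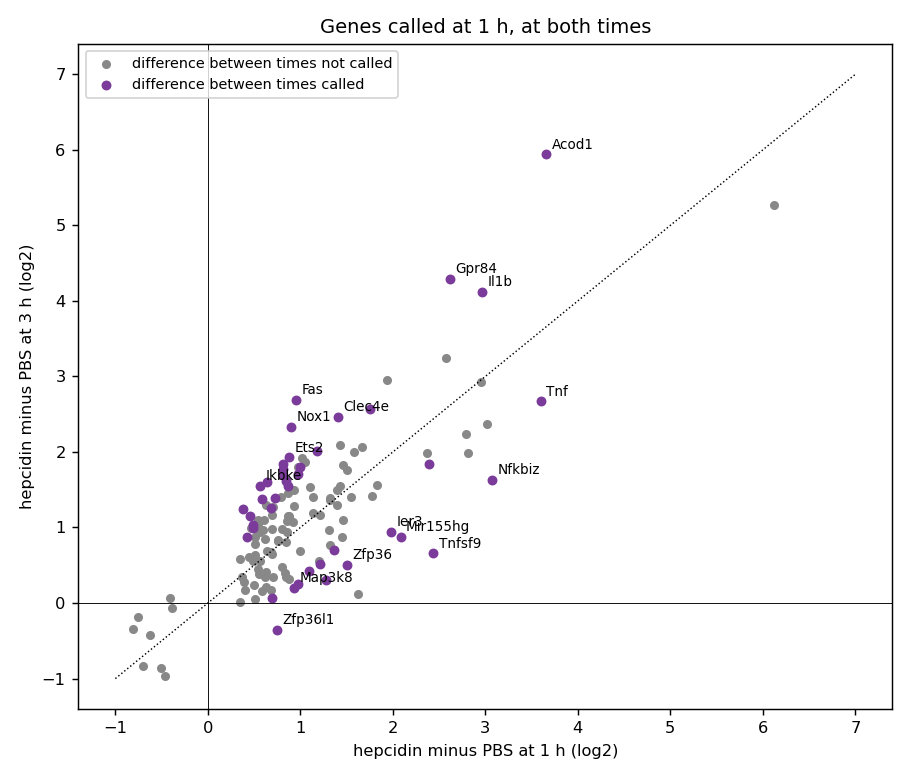
Each point is 1 of the 138 genes called at 1 h, with its log2 difference at 1 h on the x axis and at 3 h on the y axis, and the dotted line marks equal differences. Purple points passed the test of the difference between times, among them 26 risers above the line, Acod1 and Fas included, and 15 below it, Tnfsf9 and Nfkbiz included.

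Promoters of the early risers were searched for short motifs in RefSeq sequence of build GRCm38.p6, a window of 300 bases that ends shortly after the start site. A promoter was available for 107 of the 130 risers and for 18380 genes on the array, and a match on either strand was counted. The kB motif, the site that NF-kB dimers bind, was found in 28 of 107 risers, or 26.2%, against 5.63% of all genes. Of these 28 genes 13 belong to the NF-kB, cytokine or chemokine lists and 15 do not, among them Nox1, Sdc4, Lacc1, Mtmr14 and Casp4. With genes that have 1 promoter in the table the shares were 22.2% and 4.67%. The AP-1 motif TGANTCA was in 9.35% of risers against 8.45% of all genes, the cyclic AMP element TGACGTCA in 2.80% against 2.57%, the STAT motif TTCNNNGAA in 13.1% against 9.22% and the serum response element in 3.74% against 1.69%. A match is a description of letters, not a bound site, and the motifs can overlap each other.

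The 4 risers with a match and the largest difference outside the NF-kB, cytokine and chemokine lists are shown, 5′ to 3′ in the direction of the gene, to show the match in genes outside the groups most tied to that pathway. Capitals mark every stretch that matched the kB motif on either strand.
Ier3, chr17:35821463-35821762, plus strand: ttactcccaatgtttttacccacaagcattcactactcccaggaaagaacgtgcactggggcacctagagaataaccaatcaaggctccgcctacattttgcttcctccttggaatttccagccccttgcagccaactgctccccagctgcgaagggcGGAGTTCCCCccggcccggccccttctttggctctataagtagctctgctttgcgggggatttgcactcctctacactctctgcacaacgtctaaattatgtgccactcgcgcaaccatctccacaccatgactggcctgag
Tlr2, chr3:83841559-83841858, minus strand: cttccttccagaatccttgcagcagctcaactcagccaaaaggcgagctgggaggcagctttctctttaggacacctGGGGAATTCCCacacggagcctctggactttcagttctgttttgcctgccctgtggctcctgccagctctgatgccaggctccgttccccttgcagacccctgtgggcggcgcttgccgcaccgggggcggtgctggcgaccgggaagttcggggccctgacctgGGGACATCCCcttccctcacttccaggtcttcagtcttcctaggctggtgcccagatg
Pde4b, chr4:102569810-102570109, plus strand: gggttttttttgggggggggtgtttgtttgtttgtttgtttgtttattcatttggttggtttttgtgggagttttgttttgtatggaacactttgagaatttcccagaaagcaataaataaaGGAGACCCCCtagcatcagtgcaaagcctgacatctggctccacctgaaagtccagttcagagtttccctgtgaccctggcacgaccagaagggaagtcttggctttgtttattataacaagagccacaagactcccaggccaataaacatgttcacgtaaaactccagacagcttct
Ccrl2, chr9:111057469-111057768, minus strand: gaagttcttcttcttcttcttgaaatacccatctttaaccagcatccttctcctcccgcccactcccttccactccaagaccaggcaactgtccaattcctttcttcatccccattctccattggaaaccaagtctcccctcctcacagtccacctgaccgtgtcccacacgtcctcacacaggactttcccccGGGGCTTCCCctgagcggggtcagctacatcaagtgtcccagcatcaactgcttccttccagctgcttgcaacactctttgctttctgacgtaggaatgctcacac

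Ier3 rose by 1.98 ± 0.15, Tlr2 by 1.67 ± 0.12 and Ccrl2 by 1.43 ± 0.20. The place of Pde4b among the largest rests on its fitted difference from a PBS level at background, where only the lower bound is measured. Gpr84, Zc3h12c, Slc2a6, Icosl and Flrt3, risers whose promoters are in the table, had no match in this window.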

How the data were processed

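RNA from 12 bone marrow-derived macrophage samples was read on Affymetrix arrays that cover whole transcripts, per the labels' protocols. The deposited values are log2 signals, 1 per probe set and array, made by the authors with RMA and Partek, per the submitters' processing notes; that the base is 2 is read from the range of the values, and software versions and genome build are not given in the sources used here. Of 25429 probe sets, 24675 have 1 gene in the platform annotation and were analysed, and 754 have none. No column of another series is in the table.

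A model of 4 group means was fitted over all 12 arrays with limma 3.58.1 in R 4.3.3 (lmFit, contrasts.fit, eBayes; 8 residual and 4.109 prior degrees of freedom), with no filter and no block. P-values were adjusted by Benjamini-Hochberg over all named genes and called under 0.05; the script was tested on simulated data. Genes were grouped by 26 lists and named by rules covering the called genes (predicted models and clones counted and not named), the nearest misses, the brightest genes and up to 4 other members of a list. The comparison and the lists were chosen with earlier results of these data known, so no list has a test of its own and p-values were not adjusted over a list. Alternatives covered the prior, array weights, centring, filters, thresholds, a replicate block and each array left out. Promoter and microRNA sequences are RefSeq's, on GRCm38.p6.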

Additional observations from a re-analysis of the deposited data

Results flagged for a closer look

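The hepcidin effect differed between 1 h and 3 h, by the limma test of the difference between the effects at an adjusted p under 0.05, for the following 16 early risers, 8 in each direction, chosen by size among those that passed. Values are the log2 effect at 3 h minus that at 1 h.

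The effect was larger at 3 h for Acod1, by 2.28, for Fas, by 1.74, for Gpr84, by 1.68, for Nox1, by 1.43, for Il1b, by 1.15, for Clec4e, by 1.06, for Ets2, by 1.06, and for Ikbke, by 0.99. It was smaller at 3 h for Tnfsf9, at -1.78, Nfkbiz, at -1.44, Mir155hg, at -1.20, Zfp36l1, at -1.10, Ier3, at -1.03, Zfp36, at -0.997 ± 0.12, Tnf, at -0.92, and Map3k8, at -0.72. Il1b and Mir155hg lay at background under PBS at both times, so the size of their effects, and their place in this order, is not measured. The 1 h arrays enter both this test and the choice of the genes.

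Outside the named genes, 3 of the 754 probe sets with no gene name, 0.398%, passed the test at 1 h when adjusted with all probe sets. Their log2 differences were -1.10, -0.53 and 0.61.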

How the results depend on the processing

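Of 129 named genes called at 1 h, none reversed direction under any alternative run, and all 51 rises of 2-fold or more passed with each array left out. The 8 falls moved most, to 19 with array weights, 2 with the 1 h arrays alone, 16 with a trended and robust prior, 15 at an adjusted p under 0.10 and 0 with a fold minimum of 1.5. That minimum left 39 calls, all of them risers (39), and 5 dim genes instead of 10, and testing only genes above the median mean left 3 dim genes, since few dim genes enter. The effect between times was called for 412 genes above the median mean and 433 with the trended prior, against 254; the cause of the latter was not tested. With the top 20% in place of the top 10% of genes by level, 4654 intervals lay within 0.5, since more genes enter.

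With 1 array left out, calls ranged from 99 to 139, risers from 96 to 131, falls from 3 to 17, rises of 2-fold or more from 49 to 60, dim calls from 8 to 11, calls between times from 141 to 234 and bright genes within the bound from 2278 to 2349. Fewer arrays bring fewer degrees of freedom. A replicate block gave 163 calls, 152 of them higher, and 132 of the 138 genes remained. It put 2395 bright genes within the bound, against 2344, and called 348 differences between times. Same-numbered PBS and hepcidin arrays of 1 h correlated at 0.134, 0.111 and 0.0595 in their deviations from the group means, each best with its own number. The titles number the arrays of each group, but the labels do not say what a number stands for. The numbers were therefore not taken as pairs in the main fit. Should they stand for shared cultures, that fit leaves differences between cultures in its spread. With the 1 h arrays alone 101 of the 138 genes remained.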

Other observations

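Zfp970, 1 of the 8 genes that fell, lies on chromosome 2 in a block of related zinc finger genes. The block was looked at after its values were seen, and its edges were set by genes noticed to be low, so the values are a description. Of 60 RefSeq genes in it, 6 were on the array, and all 6 were lower with hepcidin at 1 h, with a median of -0.66. In all 6 the hepcidin and PBS arrays did not overlap, against 5.86% of all genes in the downward direction, and 1 passed the test. The choice of the edges by low genes favours both of these counts of 6. At 3 h the median was -0.72 and 4 passed as lower, Zfp970 not among them, at -0.19 with an adjusted p of 0.506 (limma, Benjamini-Hochberg). The genes are close copies of each other, so their probes may share transcripts and the 6 values may not be separate measurements. Zfp970 itself read 6.38, 6.40 and 6.45 under PBS and 5.71, 5.54 and 5.72 under hepcidin at 1 h.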
